A study of Mus musculus with 18 samples.

Results

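The genes described here build caveolae, and they are 6 of the 18909 genes in the table: Cav1, Cav2, Ehd2, Pacsin2, Pacsin3 and the cavin 1 gene, which the table lists under its older symbol Ptrf. They were chosen by symbol, and all 6 passed the filter on low values in every comparison. RNA was sequenced from mouse tumour cells of 2 established lines. B16F10 is a melanoma line from the C57BL6 strain, and E0771 is a mammary tumour line. In each line, cells carried the retroviral pRetrox vector alone (control) or with MRTFA or MRTFB, and all 6 groups received doxycycline at 500 ng/mL for 48 hours to switch the transgene on, controls included. Each group had 3 libraries. MRTFA and MRTFB are coactivators of the transcription factor SRF that respond to actin polymerisation. The comparisons ask how each one changed RNA levels against the control of the same line. The labels do not say whether replicates were separate cultures or whether each transduced population was 1 clone, so the tests measure only the spread between these libraries, which may be technical.

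Caveolae are small flask-shaped pits of the plasma membrane that flatten when membrane tension rises and so buffer cells against stretch. Caveolins insert into the inner leaflet and form the scaffold, and cavins assemble on it as a peripheral coat. EHD2 is an ATPase that rings the neck and holds the pit at the surface, and pacsins are F-BAR proteins that bend membrane and bind caveolin 1. Caveolin 1 and cavin 1 are both needed for caveolae in non-muscle cells.

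The promoters of the members that rose together with MRTFA in E0771 are shown first, because SRF binds a sequence of 10 letters called the CArG box. RefSeq windows (GRCm38.p6) run from 250 bases before to 50 bases after each annotated start. The members had 11 of them (1 each for Cav2 and Ehd2, 2 each for Cav1, Pacsin3 and Ptrf, the latter under Cavin1, and 3 for Pacsin2). The lines below give the window on the plus strand of chr6:17306085-17306384 for Cav1, the plus strand of chr6:17280935-17281234 for its neighbour Cav2, the minus strand of chr11:100970566-100970865 for Ptrf, and the plus strand of chr2:91257079-91257378 for Pacsin3, each 5′ to 3′.
Cav1: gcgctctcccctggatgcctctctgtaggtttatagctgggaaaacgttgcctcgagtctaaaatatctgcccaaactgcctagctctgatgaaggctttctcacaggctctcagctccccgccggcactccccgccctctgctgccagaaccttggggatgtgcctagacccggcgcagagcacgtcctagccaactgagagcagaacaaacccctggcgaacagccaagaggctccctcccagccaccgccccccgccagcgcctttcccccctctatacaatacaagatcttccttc
Cav2: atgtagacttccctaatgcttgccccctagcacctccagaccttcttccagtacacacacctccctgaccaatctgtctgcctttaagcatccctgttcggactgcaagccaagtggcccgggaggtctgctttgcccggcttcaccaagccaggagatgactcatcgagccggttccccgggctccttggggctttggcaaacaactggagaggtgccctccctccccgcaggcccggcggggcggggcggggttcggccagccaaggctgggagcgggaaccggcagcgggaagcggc
Ptrf: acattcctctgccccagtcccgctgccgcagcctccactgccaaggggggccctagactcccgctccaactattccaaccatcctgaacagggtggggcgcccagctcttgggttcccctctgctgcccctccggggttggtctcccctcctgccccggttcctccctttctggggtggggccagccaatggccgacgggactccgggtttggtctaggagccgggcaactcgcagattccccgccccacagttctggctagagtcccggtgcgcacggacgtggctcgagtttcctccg
Pacsin3: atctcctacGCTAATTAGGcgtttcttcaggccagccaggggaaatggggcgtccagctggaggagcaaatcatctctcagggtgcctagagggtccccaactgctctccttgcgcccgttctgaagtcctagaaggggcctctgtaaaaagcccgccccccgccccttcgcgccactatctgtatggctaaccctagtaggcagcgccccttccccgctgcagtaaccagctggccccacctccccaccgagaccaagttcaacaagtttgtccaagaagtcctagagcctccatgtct
Both strands were searched for the CArG box and for stretches that differ from it by at most 1 letter. Capitals mark the single such stretch, which began 241 bases before the second annotated Pacsin3 start. None of the 11 member windows held an exact box, which occurred in 1.63% of 32851 mouse promoter windows of the same length. A stretch at most 1 letter off occurred in 21.1% of those windows. These matches describe the letters of these windows only.

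The values are scaled reads, the reads of a gene divided by the size factor of its library. The libraries held 27607055 to 37116655 reads, so 3 reads, the limit that a count of 0 allows, correspond to 2.79 to 3.38 scaled reads. Every member was far above that limit, and its smallest total over the 3 libraries of a group was 1096 reads (Cav1 in B16F10 controls). Intervals and limits for low counts use reads summed over the libraries of a group. They therefore cover counting error only and leave out the spread between libraries, and the reads carry no molecular identifiers. The gene encoding MRTFA, Mkl1 in this table, rose by 3.34 (log2, adjusted p = 4.68e-07) in E0771 MRTFA libraries. In the B16F10 libraries labelled MRTFA its change was 0.22 (adjusted p = 0.856). Mkl2, which encodes MRTFB, rose by 0.69 (adjusted p = 0.0306) in E0771 MRTFB libraries and had a change of 0.35 (adjusted p = 0.503) in the B16F10 libraries labelled MRTFB. The B16F10 labels are therefore not shown by Mkl1 and Mkl2. The species and sequence of the transgenes are not in the labels, and whether these gene counts include transgene reads was not tested. The SRF target Acta2 rose by 7.07 (adjusted p = 0.00133) in the B16F10 libraries labelled MRTFA. In those labelled MRTFB it had 3856, 2146 and 28018 scaled reads against 463, 176 and 798 in controls, without overlap (3.93, adjusted p = 0.159), and Tagln, another SRF target, had 630.0, 458 and 4709 against 55.8, 43.8 and 265. In E0771 MRTFB libraries Acta2 had 59670, 70463 and 79723 against 23963, 16568 and 18722 in controls. Tagln had 2996, 4127 and 3194 against 484, 396 and 268 there. The line labels were borne out by markers: 7 melanocyte genes summed to 561640 to 757750 scaled reads in B16F10 and 369 to 636 in E0771, and the 6 of 7 mammary epithelial genes in the table summed to 18.1 to 158 and 5845 to 17168. Listed endothelial genes, a cell type rich in caveolae, summed to at most 26.5 (2 of 5 in the table) and the adipocyte gene to at most 7.72 (1 of 4), while fibroblast genes summed to 535 to 6704 (4 of 5) and immune genes to 24.3 to 306 (2 of 6). The mammary epithelial sum moved with MRTFA, at 15156 to 17168 in E0771 MRTFA libraries against 5845 to 7924 in controls, and at 97.3 to 158 in B16F10 libraries labelled MRTFA against 34.4 to 77.9. In E0771 nearly all of it was the keratin gene Krt8 (14618 to 16640 against 5689 to 7794). Krt7 (309 to 355 against 75.1 to 96.7) and Elf3 (141 to 319 against 23.0 to 108) were also higher without overlap. Epcam overlapped its controls (18.6 to 49.1 against 27.0 to 69.1), and Cdh1 and Krt19 were at 9.40 or less in both groups. Between the control groups of the lines, Cdh1 ran against the sum, at 27.7 to 74.1 in B16F10 and 4.03 to 5.01 in E0771. The part of these genes in the results below was not tested. In RNA from bulk cultures, fewer expressing cells and less RNA per cell cannot be told apart.

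The control libraries of the lines differed first in caveolin 1. Cav1, which encodes the main scaffold caveolin, was 39.1-fold higher in E0771 than in B16F10, cavin 1 was 5.56-fold higher, Ehd2 3.07-fold and Pacsin2 1.73-fold, while Cav2 and Pacsin3 did not pass the test. Of the 6 members, 4 were called higher in E0771 controls by limma, among 33.4% of all 14859 genes tested called higher and 70.2% called in either direction. Because most genes differed between the lines, the share of members called is close to the background in either direction, though not to that for higher calls alone.

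Cav1 (ENSMUSG00000007655.16, GRCm38 chr6:17306335-17341452, plus strand) had 329, 222 and 502 scaled reads in B16F10 control replicates 1 to 3 and 14565, 13213 and 13436 in E0771. The groups did not overlap, and the log2 difference was 5.36 (SE 0.40, adjusted p = 2.35e-09). Cav2 (ENSMUSG00000000058.6, chr6:17281185-17289115, plus strand) lies 17219 bases upstream of Cav1 and encodes the caveolin that assembles with caveolin 1. It had 5924, 5277 and 7547 in B16F10 and 6931, 6593 and 6242 in E0771. The groups overlapped, and the difference was 0.09 (95% interval −0.18 to 0.36, adjusted p = 0.545). The lines therefore differed in 1 of these neighbouring caveolin genes by limma and not detectably in the other.

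Ptrf (ENSMUSG00000004044.9, chr11:100956733-100970887, minus strand), which encodes the coat protein cavin 1, had 2880.1, 2546 and 4121 scaled reads in B16F10 controls and 18898, 19246 and 14901 in E0771. Every E0771 control was above every B16F10 control (log2 95% interval 2.04 to 2.95, adjusted p = 1.81e-08). Ehd2 (ENSMUSG00000074364.5, chr7:15946958-15967567, minus strand), the neck ATPase gene, had 1223, 789 and 1451 against 3405, 3987 and 3222. Those groups did not overlap either (1.65, SE 0.29, adjusted p = 7.03e-05). Pacsin2 (ENSMUSG00000016664.14, chr15:83375607-83464606, minus strand), the widely expressed pacsin of non-muscle caveolae, had 5058, 6229 and 4803 against 8692, 10189.5 and 8991, a difference of 0.80 (SE 0.11, adjusted p = 5.85e-06). Pacsin3 (ENSMUSG00000027257.13, chr2:91255954-91264679, plus strand), the pacsin that is most abundant in muscle, was the member that stood lower in E0771 controls. Its values were 967, 698 and 648 in B16F10 and 449, 614 and 574 in E0771, without overlap. The difference of −0.49 (adjusted p = 0.0647) passed only without B16F10 control replicate 3 (−0.60, adjusted p = 0.0464). Exons of Pacsin3 overlap a long noncoding RNA gene on the other strand, Gm17281, and the strandedness of the counting, not given in the sources used here, decides whether their reads mix. That gene was listed at 7 to 19 scaled reads in B16F10 and at most 1.87 in E0771.

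**Figure D1:**
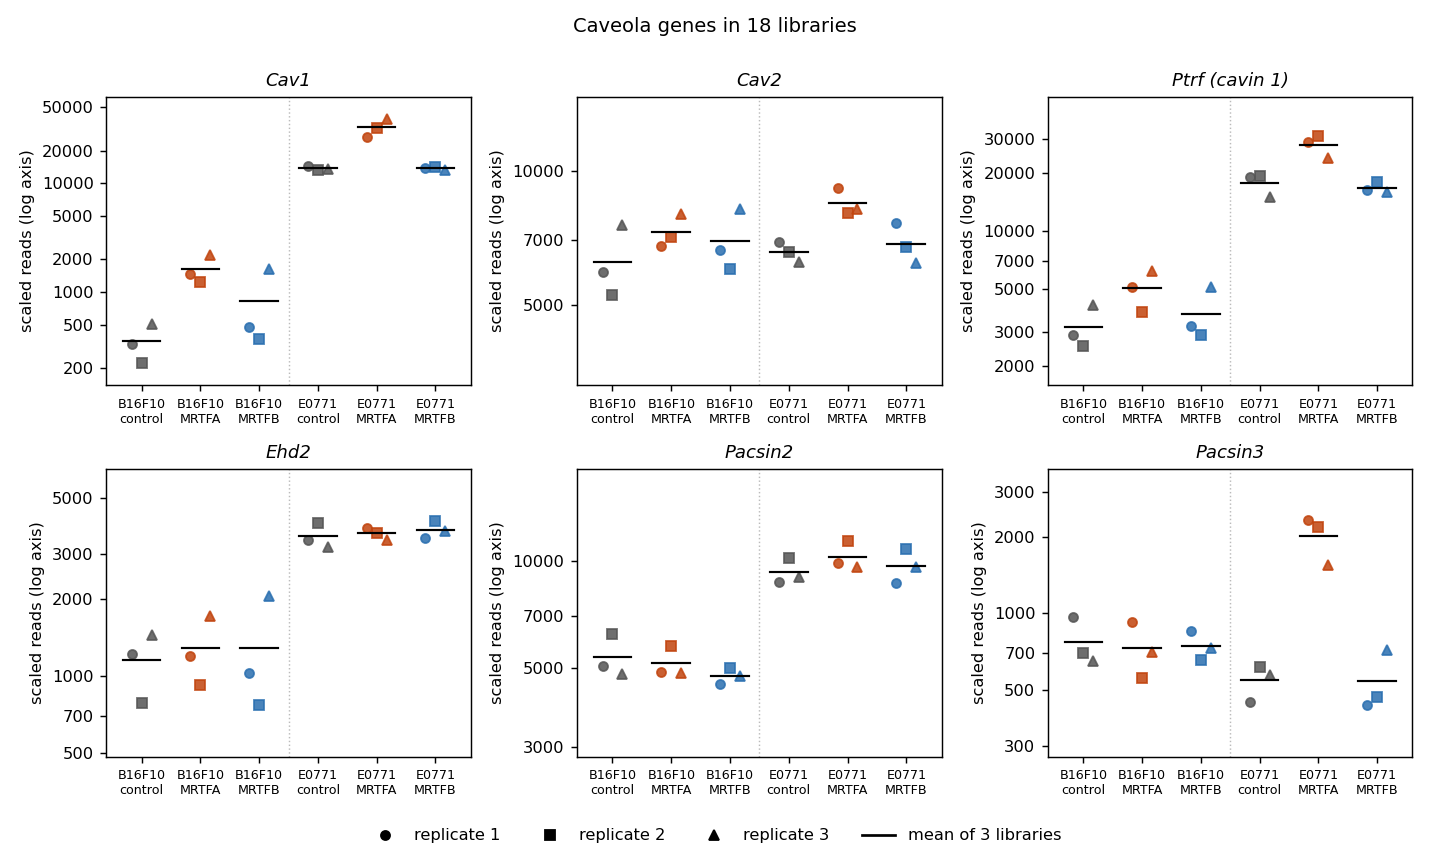
Scaled reads (log axis) of the 6 caveola genes in each of the 18 libraries, by group, with a marker shape for each replicate number and a line at the mean of 3 libraries. Cav1 separates the lines most, at 222 to 502 in B16F10 controls and 13213 to 14565 in E0771 controls, and Pacsin3 is above all other groups in E0771 MRTFA libraries (1549 to 2323).

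Levels of different members were compared per kilobase of exon. In B16F10 controls the order of mean levels was Cav2 (1874 scaled reads per kb), Pacsin2 (1093), Ptrf (887), Ehd2 (225), Pacsin3 (178) and Cav1 (102). The ranges of the neighbours Pacsin2 and Ptrf overlapped (979 to 1269 and 710 to 1149; lowest and highest library), as did those of Ehd2 and Pacsin3 (154 to 283 and 150 to 223), while Cav1 (64.5 to 146) lay below Pacsin3. In E0771 controls the order was Ptrf (4929), Cav1 (3989), Cav2 (1976), Pacsin2 (1893), Ehd2 (691) and Pacsin3 (126). There Ptrf and Cav1 overlapped (4154 to 5366 and 3836 to 4229), and so did Cav2 and Pacsin2 (1872 to 2078 and 1771 to 2076). Cav1 was therefore last of the 6 in B16F10 controls and second in E0771 controls.

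The balance between caveolins differed in the same way. The ratio of Cav1 to Cav2 per kb was 0.0530 ± 0.0119 (SD, n = 3) in B16F10 controls and 2.02 ± 0.0731 in E0771 controls. Cav1 against cavin 1 per kb was 0.112 ± 0.0190 in B16F10 controls and 0.819 ± 0.113 in E0771 controls. The ranges of either ratio did not overlap between the lines.

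**Figure D2:**
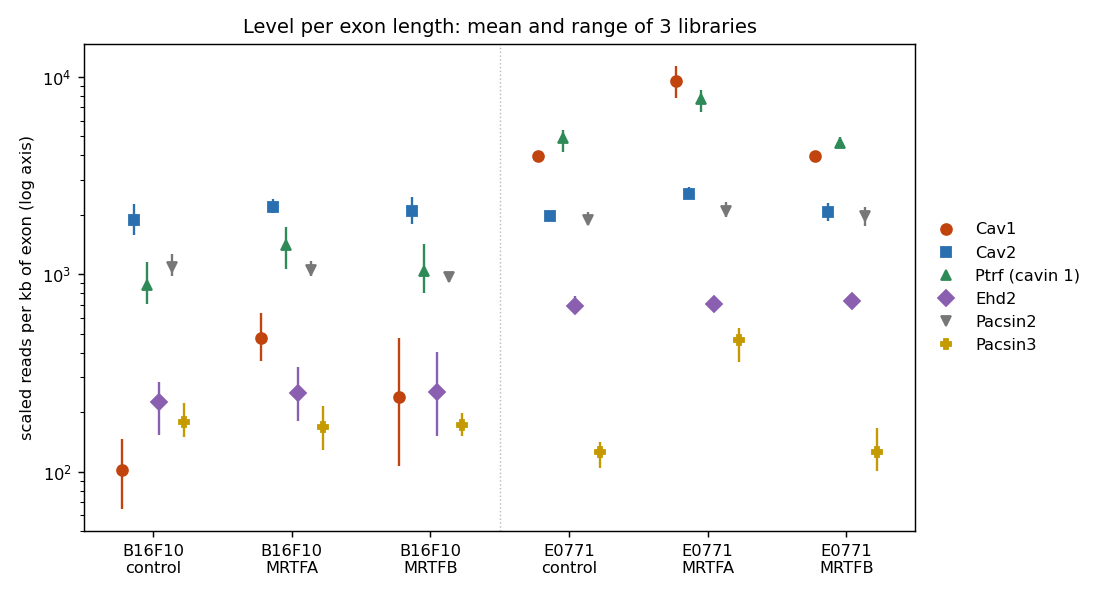
Scaled reads per kilobase of exon (log axis) for the 6 caveola genes in each group, points at the mean and bars from the lowest to the highest of 3 libraries. In B16F10 controls Cav1 is lowest at 102 and Cav2 highest at 1874, and in E0771 MRTFA libraries Cav1 is highest at 9514.

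MRTFA in E0771 raised 4 of the 6 caveola genes. Pacsin3 stood 3.70-fold, Cav1 2.39-fold, Ptrf 1.57-fold and Cav2 1.29-fold above its control mean, and the groups of these genes did not overlap. Ehd2 and Pacsin2 were not called. The background was 20.3% of 13189 tested genes higher and 38.4% called in either direction. The median over the 6 members was 0.51 (log2), against −0.02 over all genes.

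Cav1 had 26857, 32402 and 39035 scaled reads in E0771 MRTFA libraries, against 13213 to 14565 in controls. All 3 were above every control, and the lowest was replicate 1. Its rise was 1.24 (log2, SE 0.12, adjusted p = 2.08e-05). Pacsin3 had 2323, 2188 and 1549 against 449 to 614, with replicate 3 the lowest. Its rise of 1.88 (SE 0.21, adjusted p = 7.10e-05) was the largest of the members.

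Cavin 1 also rose. Ptrf had 28774, 30828 and 23688 in E0771 MRTFA libraries against 14901 to 19246, a rise of 0.65 (SE 0.13, adjusted p = 0.0023). Cav2 had 9189, 8035 and 8233 against 6242 to 6931. The rise of Cav2, 0.36 (SE 0.09, adjusted p = 0.0118), was the smallest of the called ones, and without E0771 MRTFA replicate 1 it was 0.31 and missed the threshold (adjusted p = 0.0509). The other 3 calls held without any single library of the E0771 control and MRTFA groups.

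The neck and membrane-bending genes Ehd2 and Pacsin2 gave values close to the controls. Ehd2 had 3825, 3628 and 3421 scaled reads in E0771 MRTFA libraries against 3222 to 3987, which overlap (0.04, 95% interval −0.18 to 0.26, adjusted p = 0.786). Pacsin2 had 9842, 11341 and 9615 against 8692 to 10189.5, which overlap too (0.14, 95% interval −0.09 to 0.38, adjusted p = 0.314). With these unequal changes, Cav1 to Cav2 per kb was 3.78 ± 0.888 in MRTFA libraries and 2.02 ± 0.0731 in controls, and the ratios did not overlap (2.83 to 4.59 and 1.94 to 2.08). Cav1 against cavin 1 per kb was 1.26 ± 0.399, and its lowest value (0.972) was above the highest control (0.939). Per kb, Cav1 (9514) had the highest mean of the members in this group, above Ptrf (7740), but their ranges overlapped (7798 to 11334 and 6604 to 8594).

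**Figure D3:**
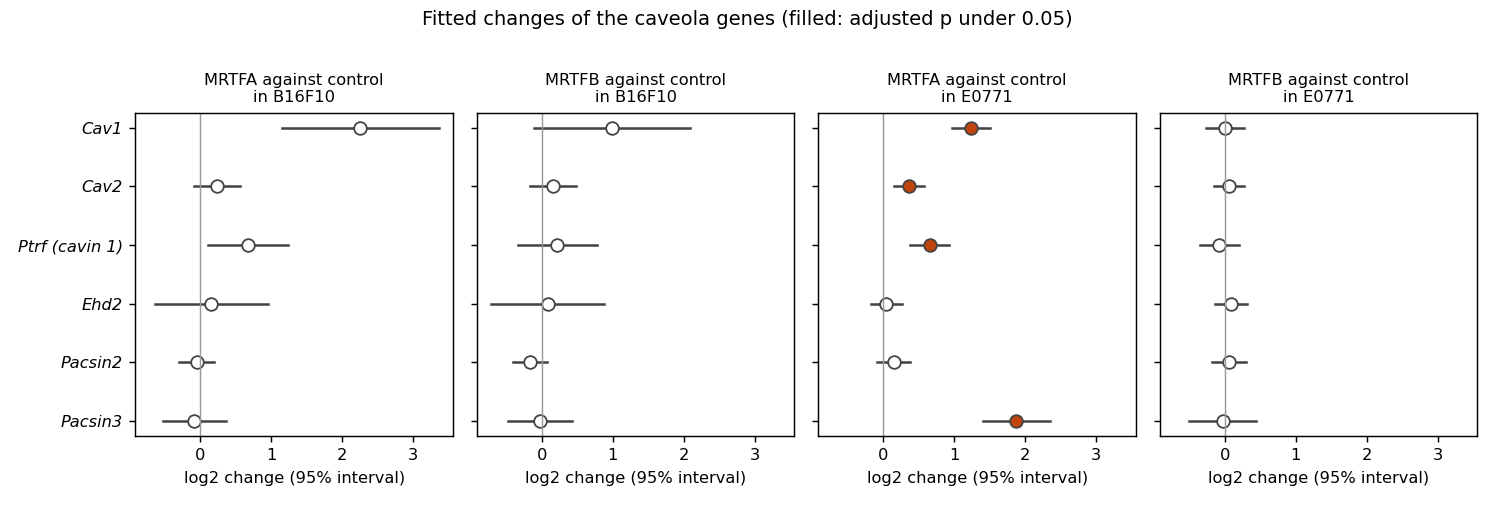
Fitted log2 change of each caveola gene against the control of its line (x axis, with the 95% interval), in a panel for each line and transgene; filled points passed an adjusted p under 0.05 in the fit without replicate numbers. Filled points occur only for MRTFA in E0771 (Cav1, Cav2, Ptrf and Pacsin3), and the widest interval is that of Cav1 in B16F10, 1.15 to 3.36 for MRTFA.

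In the B16F10 libraries labelled MRTFA, the highest values against control were those of Cav1, but no member passed limma's test when replicate numbers were ignored. Cav1 had 1459, 1245 and 2204 scaled reads, 4.66-fold the control mean by the ratio of means. All 3 were above the controls (222 to 502). Its log2 value was 2.25 (SE 0.50, 95% interval 1.15 to 3.36) with an adjusted p of 0.0625. The count was 0 of 6 members, also with edgeR's quasi-likelihood test. For these calls the background was 1.34% of 13517 tested genes called higher and 1.55% in either direction. At an unadjusted p under 0.05 the count was 2 of 6 (Cav1 and Ptrf), where 1272 of the 13517 genes passed.

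Equal replicate numbers deviated together in this comparison, so the fit with the number as a block is given beside it. With the replicate block, Cav1 rose by 2.25 (adjusted p = 0.000124) and Ptrf by 0.67 (adjusted p = 0.000325), which made 2 of 6 members called, and 855 genes (6.33%) were called in place of 209. Ptrf had 5147, 3796 and 6227 scaled reads in the libraries labelled MRTFA against 2546 to 4121. Those groups overlapped, but each library was above the control of its own number, by 0.84, 0.58 and 0.60 on the log2 scale. For Cav1 these log2 differences were 2.15, 2.48 and 2.13. Without the block Ptrf gave 0.67 (95% interval 0.11 to 1.23, adjusted p = 0.39).

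In B16F10 the libraries numbered 3 were mostly the highest of their groups. Among the 18 sets of 1 member in 1 B16F10 group, replicate 3 was highest in 12, and these were all the sets of Cav1, Cav2, Ptrf and Ehd2. Without the 3 B16F10 libraries numbered 3, Cav1 had a log2 value of 2.31 (adjusted p = 0.000527) and Ptrf 0.71 (adjusted p = 0.0543). Without B16F10 control replicate 3 alone, Cav1 gave 2.55 (adjusted p = 0.0423), and leaving out any other library of the B16F10 control and MRTFA groups gave 1.96 to 2.43 with adjusted p-values of 0.184 to 0.29.

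The remaining members showed small differences in the B16F10 libraries labelled MRTFA. Cav2 had 6781, 7122 and 7990.4 scaled reads against 5277 to 7547 (0.24, 95% interval −0.09 to 0.56, adjusted p = 0.746). Ehd2 had 1205, 925 and 1729.9 against 789 to 1451, and its interval ran from −0.64 to 0.95. Pacsin2 had 4880.1, 5746 and 4821 against 4803 to 6229 (−0.05, 95% interval −0.30 to 0.19). Pacsin3 had 929.6, 558 and 707 against 648 to 967 (−0.09, 95% interval −0.54 to 0.36). All 4 groups overlapped their controls, and none of the 4 genes was called with the block. The Cav1 to Cav2 ratio per kb was 0.215 ± 0.0492 in these libraries, against 0.0530 ± 0.0119 in controls, without overlap.

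**Figure D4:**
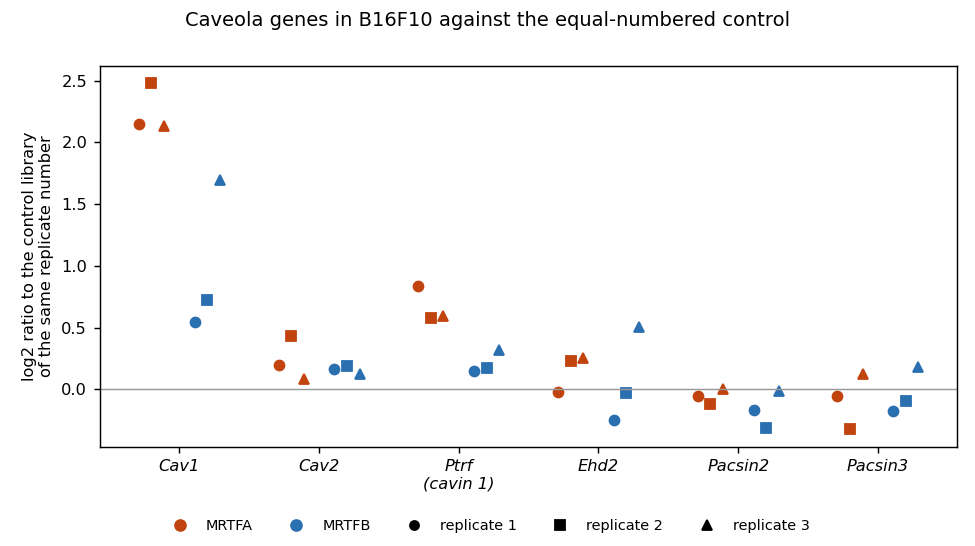
Log2 ratio (y axis) of each caveola gene in the B16F10 libraries labelled MRTFA or MRTFB to the control library of the same replicate number; each point is 1 library. All 3 MRTFA points of Cav1 lie between 2.13 and 2.48 and those of Ptrf between 0.58 and 0.84, and the MRTFB ratios of Cav1 are 0.54, 0.73 and 1.70, the last in replicate 3.

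The response to MRTFA was then compared between the lines. Pacsin3 was the 1 member whose response differed by limma when replicate numbers were ignored, among 12.6% of 14859 genes with a larger response in E0771 and 21.1% called in either direction. Its response was 1.96 (log2, SE 0.32, adjusted p = 0.000362) larger in E0771 than in B16F10, where its groups overlapped. The difference was 0.13 (95% interval −0.26 to 0.51) for Cav2, −0.02 (−0.67 to 0.63) for Ptrf, −0.11 (−0.98 to 0.75) for Ehd2 and 0.20 (−0.13 to 0.53) for Pacsin2. For Cav1 the fitted response was smaller in E0771 by 1.01 on the log2 scale (95% interval −2.21 to 0.18, adjusted p = 0.225). Without the B16F10 libraries numbered 3 this Cav1 difference was −1.07 and passed (adjusted p = 0.00832). The B16F10 control level of Cav1 was 39.1-fold lower than that of E0771, and the B16F10 libraries labelled MRTFA, at 1636 ± 503 scaled reads (SD, n = 3), were all below every E0771 library.

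With MRTFB, limma called no caveola gene in either line when replicate numbers were ignored, and in E0771 the values were close to control. In E0771, 0 of 6 members were called, also 0 by edgeR and 0 with the replicate block, against a background of 0.144% of genes without it. At an unadjusted p under 0.05 there were 0 of 6 members and 335 of 13189 genes. The log2 values ran from −0.08 (Ptrf) to 0.09 (Ehd2). Cav1 had 13859, 14009 and 13371 scaled reads there, a log2 value of 0.00 (95% interval −0.26 to 0.27), and Ptrf had 16336, 17807 and 15820.2 (−0.08, −0.36 to 0.20). Cav2 had 7646, 6753 and 6206 (0.06, −0.15 to 0.27), Ehd2 had 3473, 4068 and 3703 (0.09, −0.13 to 0.31) and Pacsin2 had 8657, 10768 and 9606 (0.06, −0.18 to 0.29). Pacsin3 had 437, 468 and 721 (−0.03, −0.51 to 0.44). All 6 overlapped their controls. Rises above 0.44 on the log2 scale lie outside each of these intervals.

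In the B16F10 libraries labelled MRTFB, Cav1 had 480.3, 368 and 1633 scaled reads in replicates 1 to 3, against 222 to 502 in controls. Replicate 3 stood apart from the others and the groups overlapped, but each library was above the control of its own number, by 0.54, 0.73 and 1.70 on the log2 scale. The fitted value was 0.99 (95% interval −0.12 to 2.10, adjusted p = 0.613). It was 0.34 without MRTFB replicate 3 and 0.64 (adjusted p = 0.212) without all B16F10 libraries numbered 3, of which the control was also the highest of its group. With the replicate block Cav1 rose by 0.99 with an adjusted p of 0.029, and 603 genes (4.46%) were called in place of 17. Limma without the block and edgeR called 0 of 6 members, against a background of 0.126%. None had an unadjusted p under 0.05, where 1199 of 13517 genes did. The same library had the highest Ehd2 (2061, against 1031 and 775) and Ptrf (5125, against 3201 and 2878) of its group. Cav2 had 6657, 6019 and 8213, Pacsin2 4498, 5009 and 4752, and Pacsin3 856, 653 and 735, and each overlapped its controls. The difference between lines in the MRTFB response was called for 0 of 6 members by limma and by edgeR, against a background of 0.114%. At an unadjusted p under 0.05 there were 0 of 6 members and 811 of 14859 genes. The interval of this difference for Cav1 was −2.18 to 0.21.

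Set against MRTFA directly, MRTFB libraries of E0771 were lower in the same 4 members, with the same MRTFA libraries on the other side of the comparison. Pacsin3 was lower by 1.91 (log2; adjusted p = 6.98e-05), Cav1 by 1.24 (adjusted p = 2.44e-05), Ptrf by 0.73 (adjusted p = 0.00134) and Cav2 by 0.31 (adjusted p = 0.0292). The background was 19.1% of genes lower and 33.6% in either direction. The Cav2 call was lost with upper-quartile scaling (−0.27, adjusted p = 0.0636) and, among single libraries, without E0771 MRTFA replicate 1 (−0.25), MRTFA replicate 2 (−0.35), MRTFB replicate 2 (−0.30) or MRTFB replicate 3 (−0.24). With the replicate block the same 4 members were called lower in E0771, with adjusted p = 0.00553 for Cav2 and 8.62e-05 for Ptrf. The block called 5780 genes in place of 4430. In B16F10, 0 of 6 members differed between the libraries labelled MRTFB and MRTFA by limma or edgeR. The background was 1.08% lower and 1.09% in either direction. At an unadjusted p under 0.05 there was 1 of 6 (Cav1), where 586 of 13517 genes passed. With the replicate block, Cav1 (−1.26, adjusted p = 0.00697) and Ptrf (−0.46, adjusted p = 0.00557) were lower with MRTFB, and 359 genes (2.66%) were called in place of 148. Without B16F10 MRTFB replicate 3 the Cav1 difference was −1.91 (adjusted p = 0.0145), and without all B16F10 libraries numbered 3 it was −1.68 (adjusted p = 0.00773).

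The caveolin and cavin families have further members, and MRTFA libraries held more RNA of several of them. Cav3, the caveolin of striated muscle, was read 0, 0 and 0 times in E0771 controls and 49, 38 and 21 times in E0771 MRTFA libraries. That is at least 36.3-fold higher, taking 3 reads over the control group as the limit. In B16F10 it was read 2, 0 and 1 times in controls and 76, 37 and 64 times in the libraries labelled MRTFA, a ratio of 61.1 (95% interval 20.6 to 299). MRTFB libraries had 0, 0 and 5 reads in B16F10 and 0, 0 and 0 in E0771. In both lines the gene passed the filter on low values only through the MRTFA libraries, so no test of it is given. The mean of Cav3 in MRTFA libraries was 58.6 scaled reads in B16F10 and 35.3 in E0771.

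Sdpr, which encodes cavin 2, a cavin that promotes membrane curvature, ran opposite to cavin 1 between the lines, where 36.8% of genes were lower in E0771 controls. It had 2255, 2268 and 2145 scaled reads in B16F10 controls and 48.3, 50.1 and 60.7 in E0771 controls (−5.37, SE 0.15, adjusted p = 9.67e-15). It rose in MRTFA libraries of both lines. In E0771 it reached 905, 846 and 1023 (17.4-fold, log2 4.10, SE 0.21, adjusted p = 3.23e-07), and in the B16F10 libraries labelled MRTFA it had 3139.8, 3339 and 3185 (0.54, SE 0.07, adjusted p = 0.00192). Neither pair of groups overlapped, and the response was larger in E0771 by 3.57 (adjusted p = 2.01e-08). With MRTFB it had 72.0, 61.2 and 105.9 in E0771 (0.55, adjusted p = 1) and 2466, 2629 and 2529 in B16F10 (0.19, adjusted p = 0.389), above every control in each line but not called.

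Prkcdbp, which encodes cavin 3, was near 0 in B16F10 and well read in E0771. B16F10 controls had 0, 1 and 1 reads against 860, 1138 and 810 in E0771 controls, a ratio of 1428 scaled (95% interval 395 to 11800). In E0771 MRTFA libraries it rose from 866, 1140 and 757 scaled reads to 3790, 4291 and 3389 (2.07, SE 0.17, adjusted p = 6.93e-06), while MRTFB libraries had 781, 1099.5 and 1052. The B16F10 libraries labelled MRTFA had 7, 6 and 14 reads, a ratio of 14.0 to controls (95% interval 3.51 to 121), and the gene fell below the filter there and was not tested. Murc, which encodes the muscle cavin, cavin 4, was read 50 times over E0771 controls and 23 times over E0771 MRTFA libraries. Its fall of 1.03 (log2, adjusted p = 0.049) was lost with edgeR (adjusted p = 0.0676) and without any single library of either group (adjusted p = 0.0571 to 0.152). In B16F10 controls it had 0 reads.

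**Figure D5:**
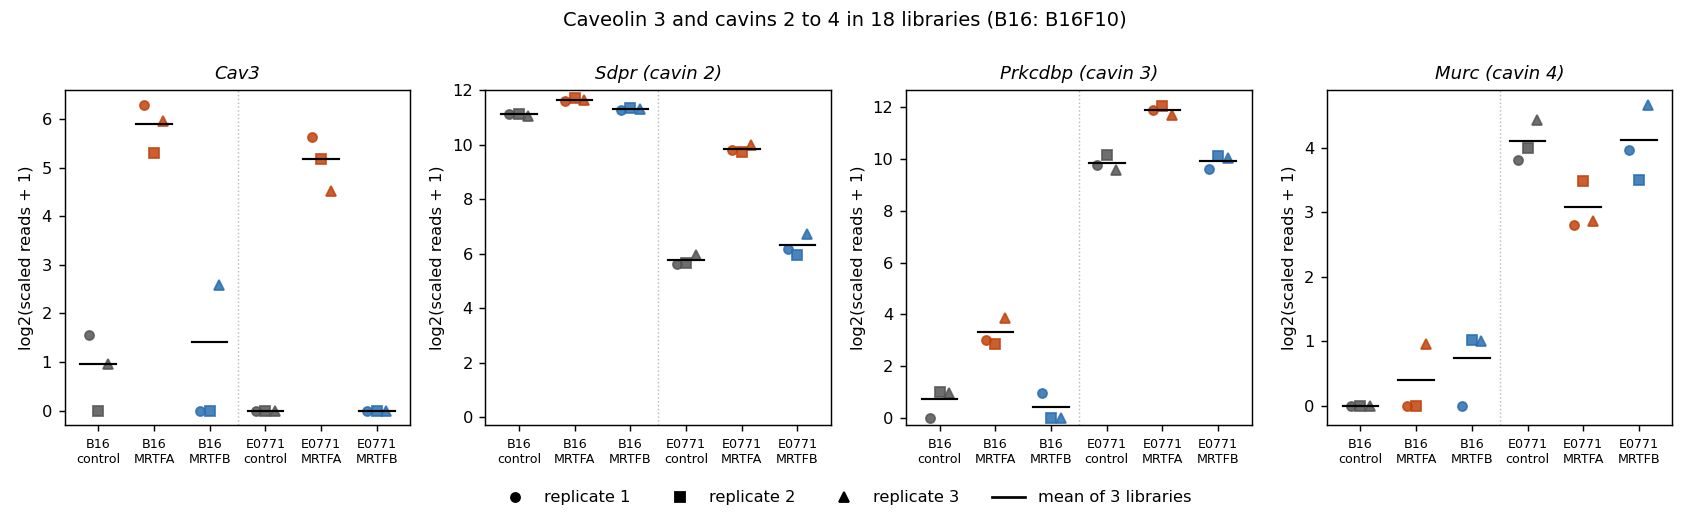
Log2 of scaled reads plus 1 for Cav3, Sdpr, Prkcdbp and Murc in each library, by group, with a line at the log2 of the mean of 3 libraries. Cav3 is near 0 outside the MRTFA groups, Sdpr is high in B16F10 and low in E0771 controls (48.3 to 60.7 scaled reads), and Prkcdbp has the opposite arrangement.

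A list of 15 further caveola-related genes, all in the table, held these 4 together with other EHD and pacsin proteins, flotillins and proteins that link caveolae to actin. Cav3 is left out of the counts that follow. In E0771, 6 of the other 10 tested rose with MRTFA and 1 (Murc) fell, with a median of 0.86 (log2) against −0.02 over all genes and the backgrounds of 20.3% higher and 18.1% lower. Besides Sdpr and Prkcdbp, these were Flna, which encodes the actin crosslinker filamin A (1.72, adjusted p = 4.55e-06), Ehd1, an ATPase of endocytic recycling (0.79, adjusted p = 0.000801), Abl1, a kinase that regulates stress fibres (0.93, adjusted p = 0.000875), and Flot1, the scaffold of flotillin domains (0.93, adjusted p = 0.00498). Flna went from 64918, 76684 and 89065 scaled reads to 244302, 278995 and 234793, without overlap. In B16F10, 1 of 12 (Sdpr) rose in the libraries labelled MRTFA, against 1.34% of all genes, and 2 (also Flna) with the replicate block, where 6.33% of genes were called in either direction. The response of 5 genes of the list was larger in E0771, Sdpr, Ehd1, Flna, Abl1 and Flot1, against 12.6% of all genes. With MRTFB, 0 of 12 in B16F10 and 0 of 10 in E0771 were called by limma or edgeR, against 0.126% and 0.144% of all genes. In each line 2 had an unadjusted p under 0.05, as did 1199 of 13517 genes in B16F10 and 335 of 13189 in E0771. The replicate block called 1 of the 12 lower in the B16F10 libraries labelled MRTFB (Ehd1), against 4.46% of all genes, and none of the 10 in E0771.

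The members were described by how their levels varied together, with Pearson's r of log2 values over the 9 libraries of a line and no test, since libraries of a group share treatment and line. In B16F10, Cav1, Cav2, Ptrf and Ehd2 varied together, with r from 0.66 (Cav1 with Ehd2) to 0.94 (Cav1 with Ptrf), and Pacsin2 ran against all 4 (−0.58 to −0.34). The same 4 genes were highest in replicate 3 of every B16F10 group, and Pacsin2 was highest in replicate 2. The part of these shared replicate deviations in the r values was not tested. In E0771, Cav1, Cav2, Ptrf and Pacsin3 formed the set with r from 0.75 to 0.90, and Ehd2 was unrelated to these (−0.10 to 0.21). Among 11819 genes compared in B16F10, those most like Cav1 were Plau (0.985), Mical2 (0.975) and Adamts5 (0.968), and Cnn2 (0.986) was most like Ptrf. Among 11526 in E0771, Nars (0.993), Fbxo18 (0.993) and Stxbp6 (0.992) were most like Cav1, and Fbxo46, Slc8a2 and Camta2 (each 0.996) most like Pacsin3. In E0771, 38.4% of tested genes were called between MRTFA and control libraries, so many genes share a step between those groups.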

How the data were processed

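RNA from cultured B16F10 and E0771 cells was measured in 18 libraries, 3 in each of 6 groups. The submitters' processing notes name cutadapt 1.6, STAR 2.5.0a, HTSeq 0.5.3, DESeq and the mm10 build. Annotation release, counting mode and strandedness: not given in the sources used here. The authors deposited a scaled signal for each gene, its reads over a DESeq size factor, which makes libraries comparable. These values were whole multiples of 1 step per library (tolerance 0.001), so whole reads were recovered. Of its 18909 genes, none had fewer than 15 recovered reads over all libraries, and 18827 identifiers were found in GENCODE M21 (GRCm38). Depth was 27607055 to 37116655 reads. Libraries of a group differed beyond sampling noise (chi-square per degree of freedom 11.7 to 59.2), so none was a duplicate.

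Genes with at least 10 scaled reads in at least 3 fitted libraries entered limma 3.58.1 with a trended variance on log2(value + 1), a pseudocount of 1 that understates changes of low genes. Each line's 9 libraries were fitted together, and all 18 for differences between lines. Calls needed an adjusted p under 0.05 (Benjamini-Hochberg over all tested genes); tests are two-sided, and the procedure was tested on simulated data. Fold values are ratios of group means. Alternatives were a pseudocount of 5, a minimum of 50, no filter and upper-quartile scaling. Others were edgeR 4.0.16 on recovered reads, a replicate block and leaving out each library of the groups compared. Leaving out the B16F10 libraries numbered 3, and Cav3 from list counts, was chosen after seeing the data.

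To learn whether replicate numbers pair libraries, deviations from group means were correlated across genes between libraries with the same number. The lowest and highest values were 0.353 and 0.567 for MRTFA in B16F10, 0.382 and 0.486 for MRTFB in B16F10, 0.459 and 0.553 for MRTFB in E0771, 0.403 and 0.634 for B16F10 MRTFB set against MRTFA, and 0.134 and 0.474 for the same in E0771. These, all above 0.1, were read as paired from the data, since the labels do not say what numbers share. Members and lists were chosen with earlier results of these data known. Named genes are the 6 members, the other caveolins and cavins, up to 4 further caveola-related and 3 clathrin genes per comparison with control by adjusted p, and for likeness the 3 genes with the highest r per member, not all of which are reported here. Promoter sequences are from RefSeq.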

Additional observations from a re-analysis of the deposited data

Results flagged for a closer look

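The response to MRTFA differed between the lines, by limma's test of the difference itself, for 1 of 6 members and 5 of 15 other caveola-related genes. Replicate numbers were ignored in this test. The 15 include Cav3, whose test is not given because it passed the filter only through MRTFA libraries. Each of these called responses was larger in E0771 than in B16F10 on the log2 scale. Of all 14859 tested genes, 12.6% had a larger response in E0771 and 21.1% differed in either direction. The member was Pacsin3, with a difference of 1.96 (adjusted p = 0.000362). Cav1, with a smaller response in E0771, was called too with the replicate block, and also without the B16F10 libraries numbered 3. The other caveola-related genes were Sdpr (3.57, adjusted p = 2.01e-08), Flot1 (1.08, adjusted p = 0.0163), Flna (1.06, adjusted p = 0.00937), Ehd1 (0.97, adjusted p = 0.00066) and Abl1 (0.87, adjusted p = 0.0154). The Flot1 difference was 0.90 and missed the threshold without B16F10 MRTFA replicate 2 (adjusted p = 0.0507). Mkl1 itself, which encodes MRTFA, differed between the lines in the same direction (3.12, adjusted p = 9.84e-07), and its part in these differences was not tested. Line differences in the MRTFA response were not confined to caveola-related genes. Of the 20 clathrin endocytosis genes described below, 7 were called, 6 with a higher and 1 with a lower response in E0771. With 3 libraries a group, single libraries were not screened for outlying values.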

How the results depend on the processing

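Called genes were compared across 6 settings beside the main one, leaving out single libraries, and, chosen after seeing the data, leaving out all B16F10 libraries numbered 3. The 4 members called for MRTFA in E0771 and the 4 called between controls were 4 under a pseudocount of 5, a minimum of 50, upper-quartile scaling, edgeR and the block. The cause of the changes below was not tested, except that fewer libraries or fewer tested genes enter some settings by construction.

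For MRTFA in B16F10, 209 genes became 107 with a minimum of 50, 324 with no filter and 855 with the replicate block, and the members called went from 0 to 1 (no filter), 2 (block) and 1 (without number 3). For MRTFB in B16F10, 17 genes became 5 with a minimum of 50, 603 with the block and 224 without number 3, and the members called went from 0 to 1 with the block. For MRTFB in E0771, 19 genes became 33 with the block. For MRTFB against MRTFA in B16F10, 148 became 71 with a minimum of 50, 260 with no filter, 359 with the block and 84 without number 3; members called were 2 with the block and 1 without number 3. For the difference between lines, the MRTFA count of 3138 became 5165 with the block, where 2 members were called, as also without number 3. The MRTFB count of 17 became 28 with a pseudocount of 5, 81 with the block and 58 without number 3. By the same minimum of 0.1, replicate numbers were not read as pairs for MRTFA in E0771 (correlations 0.084, 0.461 and 0.525 for numbers 1 to 3). Nor were they for the line differences (−0.078 to 0.47 and 0.031 to 0.456) or between controls (0.084 to 0.172). The lowest values for the line differences were between libraries of different lines, while the block there was set within each line. Within lines, MRTFA and control libraries gave 0.269 to 0.47 in B16F10 and 0.058 to 0.417 in E0771 in that fit. The block gave 6405 genes in place of 5064 for MRTFA in E0771. With it, Cav1 passed for the MRTFA line difference (adjusted p = 0.0168). Apart from Cav1 and Ptrf in the comparisons named, the block changed no call of a member.

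Leaving out single libraries gave 37 to 324 genes for MRTFA in B16F10 (members 0 to 1), 0 to 129 for MRTFB in B16F10, 3260 to 4621 for MRTFA in E0771, 7 to 15 for MRTFB in E0771, 10 to 213 (members 0 to 1) when MRTFB was set against MRTFA in B16F10, 2571 to 4392 in E0771, and 2 to 47 for the MRTFB line difference. Sign changes occurred only among uncalled values. For MRTFA in B16F10 the ranges were −0.10 to 0.37 for Ehd2, −0.14 to 0.058 for Pacsin2 and −0.27 to 0.094 for Pacsin3. For MRTFB in B16F10 they were −0.037 to 0.42 for Ptrf, −0.32 to 0.38 for Ehd2 and −0.14 to 0.14 for Pacsin3, with Ehd2 at −0.14 without number 3. In E0771 Ehd2 ran from −0.025 to 0.13 with MRTFA, and with MRTFB Cav1 ran from −0.026 to 0.045, Cav2 from −0.024 to 0.13, Pacsin2 from −0.023 to 0.13, Pacsin3 from −0.26 to 0.10 and Prkcdbp from −0.039 to 0.26. For MRTFB against MRTFA, the B16F10 ranges were −0.20 to 0.022 for Cav2, −0.48 to 0.23 for Ehd2 and −0.12 to 0.24 for Pacsin3, and Ehd2 ran from −0.014 to 0.10 in E0771. For the MRTFA line difference they were −0.017 to 0.24 for Cav2, −0.22 to 0.15 for Ptrf and −0.33 to 0.14 for Ehd2. For the MRTFB line difference they were −0.25 to 0.021 for Cav2, −0.30 to 0.41 for Ehd2 and −0.23 to 0.13 for Pacsin3; there Pacsin3 was 0.007 with upper-quartile scaling, 0.028 with edgeR and 0.10 without number 3, and Ehd2 was −0.084 with edgeR. Between controls, Cav2 ran from −0.023 to 0.24.

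Depth limits Cav3, Murc and, in B16F10, Prkcdbp, whose group totals in the controls were 0 to 50 reads.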

Other observations

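Some caveola-related genes were read almost only in B16F10. Ehd3, an EHD ATPase of endosomes, had 2138 ± 428 scaled reads (SD, n = 3) in B16F10 controls and 2 reads in all over E0771 controls. Flot2, which encodes flotillin 2, the partner of flotillin 1, had 2340.3 ± 191 in B16F10 controls and 6 reads in all over E0771 controls. Neither gene was called with MRTFA or MRTFB in B16F10, and both fell below the filter in E0771. Their partners in each family were read in both lines: Ehd4 had 1965 ± 208 in B16F10 controls and 4481 ± 763 in E0771 controls, and Flot1 518 ± 69.6 and 725 ± 110.0.

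Clathrin-mediated endocytosis, the other main route of membrane uptake, was followed with a list of 20 genes, all tested. With MRTFA in E0771, 7 rose and 3 fell, with a median of 0.19 (log2) against −0.02 over all genes, and the background was 20.3% higher and 18.1% lower. Hip1, which ties clathrin coats to actin, rose by 1.38 (adjusted p = 1.23e-05), Bin1, a membrane-bending protein with a BAR domain, by 1.36 (adjusted p = 2.73e-05) and Picalm, a clathrin assembly protein, by 1.35 (adjusted p = 5.99e-06). In B16F10, 0 of 20 were called by limma or edgeR in the libraries labelled MRTFA, against 1.55% of all genes. The count was also 0 in those labelled MRTFB, against 0.126%. At an unadjusted p under 0.05 there were 3 in each, where 1272 (MRTFA) and 1199 (MRTFB) of 13517 genes passed. In E0771, 0 of 20 were called with MRTFB by limma or edgeR, against 0.144% of all genes. None there had an unadjusted p under 0.05, where 335 of 13189 genes did. With the replicate block, Bin1, Dab2 and Picalm were called in the B16F10 libraries labelled MRTFA, 2 of them higher and 1 lower, against 6.33% of all genes. The block also called Dab2 lower in those labelled MRTFB, against 4.46%.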
